A study of Rattus norvegicus with 6 samples.

Results

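The receptors for GABA, glycine and glutamate were examined in neurospheres, floating clusters grown from carotid body cells of adult rats; the carotid body is a small organ beside the carotid artery that senses oxygen in the blood. Members were all genes whose symbol on the array's platform table begins with Gabr, Gabbr, Glra or Glrb, or with Gria, Grik, Grin, Grid or Grm followed by a digit. The rule found 48 single-symbol probe sets, and with the probe set of highest mean per gene it gave 47 of the 14506 genes tested. Only Grid1 had a second probe set. One member, Grid2ip, met the rule by its letters but encodes delphilin, a scaffold protein that binds the delta receptor, and not a receptor itself. It is counted with the delta class. Genes of these families with no single-symbol probe set in the table used were not analysed here.

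Total RNA was measured on 6 Affymetrix arrays, 3 labelled differentiated and 3 labelled undifferentiated. Per the labels, the differentiated spheres were grown without mitogens at 3% oxygen, and the undifferentiated spheres in normal oxygen with 4 mitogens, namely FGF, IGF-1, EGF and ET-1. Both were kept for 10 days in neural crest medium, and the mitogens and the oxygen level changed together. Values are log2 values as deposited, so a difference of 1 is a doubling, and each difference below is differentiated minus undifferentiated, followed by its standard error from limma. A gene passed at a limma p adjusted over all 14506 genes under 0.05. No label says that the 3 arrays of a group stand for separate cultures or animals, so p-values refer to sample-to-sample spread that may be technical. Because whole spheres were measured, fewer cells of a type and less RNA per cell cannot be told apart.

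Th encodes tyrosine hydroxylase of the catecholamine-making glomus cells. It read 10.73, 11.32 and 10.65 in the arrays labelled differentiated and 13.76, 13.59 and 13.91 in those labelled undifferentiated. The series design sets spheres rich in neuronal cells against spheres rich in undifferentiated cells, and the lower Th in the arrays labelled differentiated runs counter to their label. Whether the labels were exchanged was not tested. If they were, every direction below would turn, with the counts of higher and lower genes, so each group is named as the library labels give it. Of the glomus cell markers, 9 of 9 measured genes fell. Their summed linear level ran from 3116 to 4722 in the arrays labelled differentiated and from 25495 to 29022 in those labelled undifferentiated. Of 8 mesenchymal and fibroblast markers all 8 rose, with sums of 29157 to 30678 in the arrays labelled differentiated and 11817 to 15976 in those labelled undifferentiated. Neuronal markers were divided, with 2 higher and 3 lower of 9, as were those of glia and the Schwann lineage, with 2 higher and 1 lower of 7. Markers of smooth muscle and pericytes had 2 higher and 1 lower of 6, those of endothelial cells 0 and 1 of 5, and those of macrophages 2 and 1 of 6.

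GABA-A and glycine receptors are chloride channels built from related subunits and usually inhibit the adult neuron, while GABA-B receptors act through G proteins and need both of their subunits. AMPA, kainate and NMDA receptors are cation channels opened by glutamate, each assembled from members of its own subunit family, and the metabotropic receptors couple glutamate to G proteins. In the rat carotid body GABA is known as an inhibitory modulator of the signal that glomus cells pass to the sensory nerve endings.

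Set against the arrays labelled undifferentiated, those labelled differentiated had higher values of 3 and lower values of 7 of the 47 receptor genes, and 37 did not pass. The 3 that rose were Gabra2, Gabrg1 and Gria3. The 7 that fell were Grin1, Gria1, Glrb, Gria2, Grik5, Grm7 and Grin2c. Over all genes tested 29.5% passed, 14.7% higher and 14.9% lower, against 21.3% of the receptor genes, so the share of receptor genes that changed was no larger than that of all genes. The median difference was 0.06 over the receptor genes and 0.06 over all genes. Glutamate receptors held 7 of the 10 changed genes, 1 higher and 6 lower of 25 (28%, near the 29.5% of all genes). GABA and glycine receptors had 2 higher and 1 lower of 22 (13.6%).

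Most receptor genes read dim. Of the 47, 18 had a mean above 4.44, the 40th percentile of all probe set means. Of these 18, 50% passed, 2 higher and 7 lower, against 40% of the 10160 genes that bright, 1980 higher and 2079 lower. The median difference of the 18 was -0.28, against 0.03 over all genes that bright. Among the other 29, Gabrg1 alone passed. Of the 25 glutamate receptor genes 13 lay above that level, and of the 22 GABA and glycine receptor genes 5. The part of brightness in the counts by class was not tested. The deposited values do not show which dim probe sets exceeded background, so a receptor gene that did not pass is not shown to be unchanged or absent. The groups did not overlap in 31.9% of the receptor genes, 5 with the arrays labelled differentiated on top (Gabra2, Gabrg1, Grin2b, Grin2d and Grm8) and 10 with them below, against 42.3% of all genes.

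**Figure D1:**
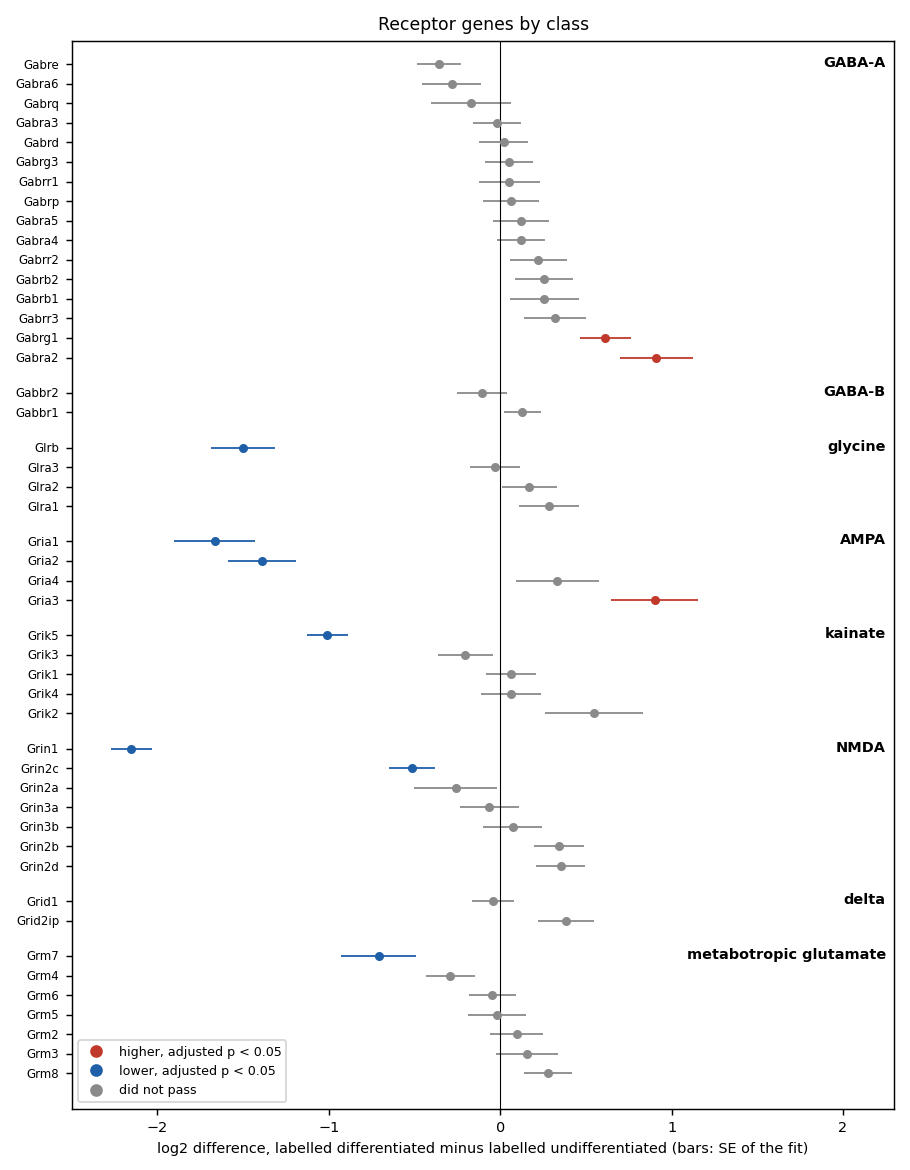
The log2 difference of each of the 47 receptor genes, labelled differentiated minus labelled undifferentiated, by receptor class; points are the fitted differences and bars their standard errors (3 arrays per group). Grin1 at -2.15 lies farthest left and Gabra2 at 0.91 farthest right, and most genes in grey sit close to 0.

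**Figure D2:**
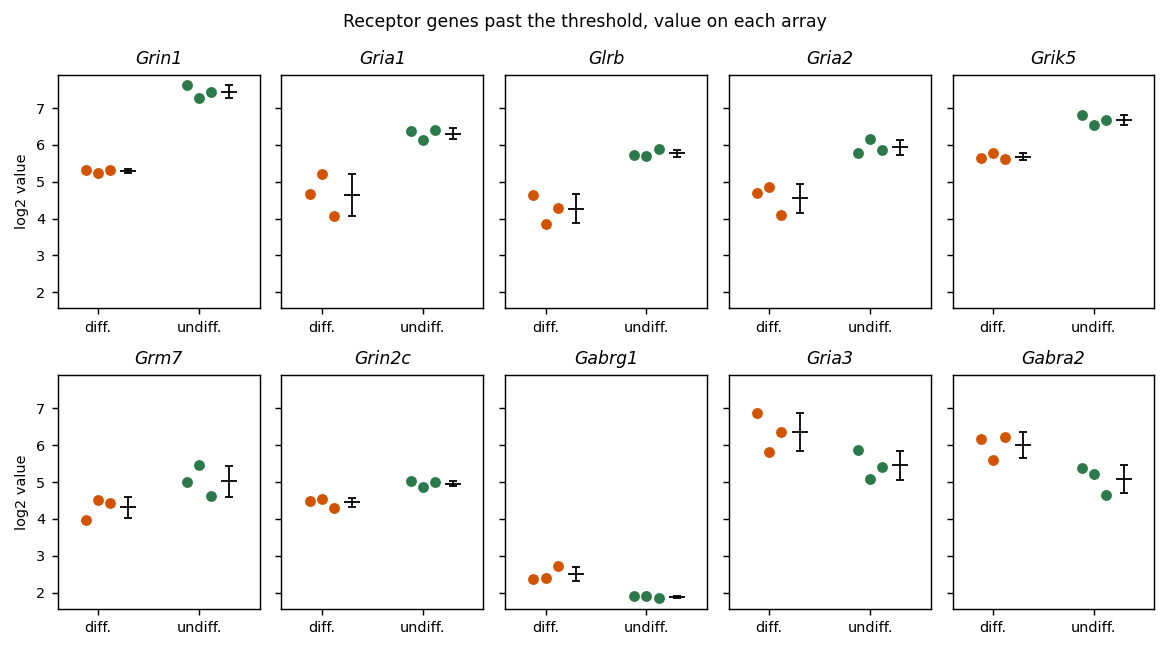
Log2 values of the 10 changed receptor genes on each array, labelled differentiated on the left and labelled undifferentiated on the right of each panel; the bar beside each group is its mean ± SD (n = 3). The groups are apart in every panel but that of Gria3, where a differentiated array at 5.83 lies just below an undifferentiated array at 5.87.

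Grin1 encodes GluN1, the subunit every NMDA receptor needs, and had the largest change of the 47. It read 5.31, 5.23 and 5.33 in the arrays labelled differentiated and 7.62, 7.27 and 7.43 in those labelled undifferentiated. The groups lay far apart and the spread within each was small. It fell by 2.15 ± 0.12, a 4.45-fold difference (limma adjusted p = 2.54e-07), and its place among all probe sets of an array was at percentiles 51.5 to 53.7 in the arrays labelled differentiated against 80.5 to 83.7 in those labelled undifferentiated.

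Promoter sequences are shown for 3 receptor genes that fell and 1 that rose, so that genes moving in opposite directions can be read side by side. The 1 that rose, Gabrg1, was among the dimmest probe sets and was not shown to lie above background. Of the 47 members 34 had an entry in the RefSeq promoter table (GRCr8), among them 6 of the 10 changed genes (Grin1, Glrb, Grik5, Grin2c, Grm7 and Gabrg1). Each stretch holds 250 bases before and 50 after the annotated start, is read 5′ to 3′ on the gene's own strand, and has in capitals each GC box, GGGCGG on either strand (CCGCCC when read from the other). The stretches are those of Grin1 (chr3:28528705-28529004, minus strand), Glrb (chr2:168505565-168505864, minus strand), Grik5 (chr1:89794860-89795159, minus strand) and Gabrg1 (chr14:37750042-37750341, plus strand).
Grin1: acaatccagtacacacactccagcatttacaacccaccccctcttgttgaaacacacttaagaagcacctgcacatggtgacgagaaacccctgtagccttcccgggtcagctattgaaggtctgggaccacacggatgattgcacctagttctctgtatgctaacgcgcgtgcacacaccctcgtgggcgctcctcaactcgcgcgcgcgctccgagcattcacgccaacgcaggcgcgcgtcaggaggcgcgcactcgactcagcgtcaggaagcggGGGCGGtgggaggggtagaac
Glrb: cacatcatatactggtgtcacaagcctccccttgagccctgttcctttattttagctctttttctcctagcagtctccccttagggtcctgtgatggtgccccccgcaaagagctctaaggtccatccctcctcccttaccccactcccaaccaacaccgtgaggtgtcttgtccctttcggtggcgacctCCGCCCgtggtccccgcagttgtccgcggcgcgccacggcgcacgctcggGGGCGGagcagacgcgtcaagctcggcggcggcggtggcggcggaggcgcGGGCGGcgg
Grik5: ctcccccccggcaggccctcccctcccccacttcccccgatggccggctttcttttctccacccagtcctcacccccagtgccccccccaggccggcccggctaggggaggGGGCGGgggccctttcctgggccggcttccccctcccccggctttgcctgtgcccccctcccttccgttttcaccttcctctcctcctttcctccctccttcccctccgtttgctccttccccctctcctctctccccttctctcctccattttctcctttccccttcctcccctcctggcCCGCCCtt
Gabrg1: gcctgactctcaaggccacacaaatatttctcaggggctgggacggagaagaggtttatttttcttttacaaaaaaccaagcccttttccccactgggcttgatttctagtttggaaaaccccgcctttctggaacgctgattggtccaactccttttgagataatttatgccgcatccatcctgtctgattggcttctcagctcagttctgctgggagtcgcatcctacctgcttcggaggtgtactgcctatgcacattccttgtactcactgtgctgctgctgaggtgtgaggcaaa

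Of these, Glrb held 3 GC boxes, Grik5 2 and Grin1 1, the last beginning 30 bases after the start, and Gabrg1 held 0. Grm7 held 2 and Grin2c 0, so 4 of the 6 changed genes had at least 1, as had 16 of the 34 members with a sequence and 33.1% of all 33469 promoters of that length. Among the changed genes G and C content was 59.7% for Grin1, 65% for Glrb, 69% for Grik5, 62% for Grm7 and 60.3% for Grin2c. It was 48.7% for Gabrg1, against a median of 51.7% over all promoters. The core bound by hypoxia-inducible factors, ACGTG or GCGTG, was searched on both strands because the groups differ in oxygen. The palindrome CACGTG holds the first form on both strands. At least 1 form occurred in 41.6% of all promoters, in 16 of the 34 members and in 3 of the 6 changed genes (Glrb, Grin1 and Grm7). In those 3 it was GCGTG, found in 29.7% of all promoters, and ACGTG, found in 19.3%, was in none of the 6 windows. A match describes the letters and does not show a binding site.

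The other NMDA subunits set the channel's kinetics and glutamate affinity. Grin2c, which encodes GluN2C, read 4.49, 4.55 and 4.30 in the arrays labelled differentiated and 5.02, 4.87 and 4.995 in those labelled undifferentiated. Its groups did not overlap, though they lay close together. It fell by 0.51 ± 0.13 (limma adjusted p = 0.0132), but it missed the threshold when undifferentiated replicate 1 (adjusted p = 0.053) or differentiated replicate 3 (adjusted p = 0.051) was left out. Grin2b and Grin2d, GluN2 genes more typical of early brain development, did not pass. Their differences were 0.35 ± 0.15 (limma adjusted p = 0.106) and 0.35 ± 0.14 (limma adjusted p = 0.0927). Grin2b was dim, at 3.26 to 3.85 over the 6 arrays, and was not shown to lie above background. For both genes all 3 arrays labelled differentiated lay above all 3 labelled undifferentiated, but groups without overlap were found in 42.3% of all genes. Grin2a, the main GluN2 gene of the adult forebrain, differed by -0.26 ± 0.24, and the glycine-binding GluN3 genes Grin3a and Grin3b by -0.06 ± 0.17 and 0.07 ± 0.17, with overlapping groups in each.

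Among AMPA receptor subunits, which carry fast excitatory transmission, 2 of 4 genes fell and 1 rose (75%, against 29.5% of all genes). Gria1, encoding GluA1, read 4.68, 5.20 and 4.06 in the arrays labelled differentiated and 6.38, 6.13 and 6.42 in those labelled undifferentiated. It was lower on every array labelled differentiated, where its values were also more scattered, and fell by 1.67 ± 0.24, a 3.17-fold difference (limma adjusted p = 0.000272). Gria2 encodes GluA2, the subunit whose edited form keeps calcium out of the channel. It read 4.68, 4.87 and 4.09 in the arrays labelled differentiated and 5.78, 6.18 and 5.86 in those labelled undifferentiated, and fell by 1.39 ± 0.20 (limma adjusted p = 0.000277). The groups did not overlap, and the third array labelled differentiated was the lowest for both Gria1 and Gria2.

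Gria3, encoding GluA3, went the opposite way. It read 6.87, 5.83 and 6.37 in the arrays labelled differentiated and 5.87, 5.09 and 5.40 in those labelled undifferentiated. The groups touched, since the lowest array labelled differentiated was just under the highest labelled undifferentiated. It rose by 0.90 ± 0.25 (limma adjusted p = 0.0192), but not without undifferentiated replicate 2 (0.72, adjusted p = 0.0877) or 3 (adjusted p = 0.0612), nor without differentiated replicate 1 (0.65, adjusted p = 0.0765) or 3 (adjusted p = 0.055). Gria4, encoding GluA4, was dim, at 3.04, 3.86 and 3.27 in the arrays labelled differentiated and 2.68, 3.44 and 3.05 in those labelled undifferentiated, and differed by 0.33 ± 0.24 (adjusted p = 0.354).

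Kainate receptors join low-affinity subunits (Grik1, Grik2 and Grik3) with high-affinity ones (Grik4 and Grik5). Of the 5 genes 1 changed (20%, against 29.5% of all genes). Grik5, encoding GluK5, which needs a low-affinity partner to form a channel, read 5.64, 5.78 and 5.62 in the arrays labelled differentiated and 6.83, 6.55 and 6.68 in those labelled undifferentiated. The arrays of each group were tight and the groups well apart. It fell by 1.01 ± 0.12, a 2.01-fold difference (limma adjusted p = 6.56e-05).

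Its common partner Grik2, encoding GluK2, read 6.76, 5.70 and 6.18 in the arrays labelled differentiated and 6.12, 5.07 and 5.80 in those labelled undifferentiated, a difference of 0.55 ± 0.29 with overlapping groups (adjusted p = 0.191). Grik2 and Gria3 shared the order of their arrays, replicate 1 highest and replicate 2 lowest in both groups. The summed glial markers had that order in the arrays labelled differentiated only, at 1451, 848 and 1206. In those labelled undifferentiated they were 1103, 916 and 1215, with replicate 3 highest. The order within the arrays labelled differentiated was not particular to Gria3 and Grik2. Glrb, which fell, shared it, as did Grin2a, Grin2b, Grin2d, Grin3a, Gabrr1 and Gabrr3. The part of glial cells in the values of Gria3 and Grik2 was not tested. Grik1 (0.06 ± 0.15), Grik3 (-0.20 ± 0.16) and Grik4 (0.06 ± 0.17) did not pass.

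Metabotropic glutamate receptors are G protein-coupled, and 1 of the 7 measured genes passed (14.3%, against 29.5% of all genes). Grm7, which encodes mGlu7, a presynaptic receptor that lowers transmitter release, read 3.98, 4.52 and 4.44 in the arrays labelled differentiated and 4.996, 5.45 and 4.61 in those labelled undifferentiated. The gap between the groups was narrow, and both groups were scattered. It fell by 0.71 ± 0.22 (limma adjusted p = 0.0299). It missed the threshold when undifferentiated replicate 1 (adjusted p = 0.067) or 2 (-0.49, adjusted p = 0.116) or differentiated replicate 1 (-0.54, adjusted p = 0.116) was left out. The same held when limma was fitted and adjusted over all probe sets (adjusted p = 0.0632).

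Grm4, encoding mGlu4 of the same release-limiting subgroup, read 4.64, 4.65 and 4.33 in the arrays labelled differentiated and 4.86, 4.87 and 4.76 in those labelled undifferentiated. Its groups did not overlap, yet the difference of -0.29 ± 0.14 did not pass (adjusted p = 0.159). Grm8, also of that subgroup, differed by 0.28 ± 0.14 with all 3 arrays labelled differentiated on top (adjusted p = 0.173). The other 4, Grm2, Grm3, Grm5 and Grm6, differed by 0.10, 0.16, -0.02 and -0.05, with overlapping groups.

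In the delta class, Grid1, which encodes the synapse-organizing receptor GluD1, read 5.24, 5.31 and 5.20 in the arrays labelled differentiated and 5.20, 5.39 and 5.29 in those labelled undifferentiated, a difference of -0.04 ± 0.12. Its probe sets disagreed. The dimmer one read 3.31, 3.43 and 3.37 in the arrays labelled differentiated and 3.81, 3.87 and 4.23 in those labelled undifferentiated, a difference of -0.60 that passed when the probe set of largest variance stood for the gene (limma adjusted p = 0.0127). Grid2ip, the scaffold, differed by 0.38 ± 0.16 (adjusted p = 0.108).

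Glycine receptors join channel-forming alpha subunits with a beta subunit that ties them to gephyrin at synapses. Glrb, the beta subunit, read 4.64, 3.86 and 4.30 in the arrays labelled differentiated and 5.72, 5.71 and 5.88 in those labelled undifferentiated. Every array labelled differentiated was lower by more than the spread of either group, and the fall was 1.50 ± 0.19, a 2.83-fold difference (limma adjusted p = 0.000103). The alpha genes Glra1, Glra2 and Glra3, at levels between 1.75 and 4.24, differed by 0.28 ± 0.17, 0.17 ± 0.16 and -0.03 ± 0.15, and none passed. Glrb lies on chromosome 2 beside Gria2 with 0 protein-coding genes between them in the GRCr8 annotation, and both fell.

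Of 16 measured GABA-A receptor genes 2 were higher and 0 lower (12.5% passed, against 29.5% of all genes). Only 3 of the 16 had a mean above 4.44. Gabra2, the alpha2 subunit found at many synapses on the axon's initial segment, read 6.17, 5.59 and 6.24 in the arrays labelled differentiated and 5.38, 5.23 and 4.65 in those labelled undifferentiated. The groups did not overlap, though differentiated replicate 2 came close to the highest undifferentiated array. It rose by 0.91 ± 0.22, a 1.88-fold difference (limma adjusted p = 0.00758).

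Gabrg1, the gamma1 subunit, read 2.37, 2.40 and 2.71 in the arrays labelled differentiated and 1.91, 1.90 and 1.85 in those labelled undifferentiated. It rose by 0.61 ± 0.15 (limma adjusted p = 0.00884). Its place was among the dimmest probe sets of each array, at percentiles 10.0 to 14.8 in the arrays labelled differentiated and 5.72 to 6.98 in those labelled undifferentiated, and it was not shown to lie above background in either group. Gabra2 and Gabrg1 are neighbours on chromosome 14, with 0 protein-coding genes between them. The other members of that cluster, Gabra4 and Gabrb1, were dim and differed by 0.12 ± 0.14 and 0.26 ± 0.20 without passing. Besides Gria2 with Glrb, other neighbours with 0 protein-coding genes between them were Gabrb1 and Gabra4, Gabrg3 and Gabra5, Gabra6 and Gabrb2, and Gabrr2 and Gabrr1. None of these other genes passed, and Gabra6 and Gabrb2 differed in sign, at -0.28 and 0.25.

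Of the 14 GABA-A genes that did not pass, Gabre, the epsilon subunit of the X-linked cluster, came closest to the threshold. It read 5.39, 5.34 and 5.15 in the arrays labelled differentiated and 5.52, 5.72 and 5.72 in those labelled undifferentiated, and differed by -0.36 ± 0.13 (limma adjusted p = 0.0573). All 3 arrays labelled differentiated lay below the rest. It passed with quantile normalization (adjusted p = 0.0475), with median centring (adjusted p = 0.043) and where dim genes were left out (adjusted p = 0.0413). The other 13 were Gabra3, Gabra4, Gabra5, Gabra6, Gabrb1, Gabrb2, Gabrd, Gabrg3, Gabrp, Gabrq and the rho genes Gabrr1, Gabrr2 and Gabrr3, with differences from -0.28 for Gabra6 to 0.32 for Gabrr3.

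Neither GABA-B gene passed. Gabbr1, the subunit that binds GABA, read 7.48, 7.22 and 7.19 in the arrays labelled differentiated and 7.18, 7.20 and 7.13 in those labelled undifferentiated. Both groups were within the upper part of each array, at percentiles 79.7 to 82.4 for the arrays labelled differentiated and 77.7 to 79.7 for those labelled undifferentiated, and the difference was 0.13 ± 0.11 (adjusted p = 0.432). Gabbr2, which couples the receptor to its G protein, read 4.29, 4.34 and 4.35 in the arrays labelled differentiated and 4.65, 4.23 and 4.42 in those labelled undifferentiated, and differed by -0.11 ± 0.15 (adjusted p = 0.657).

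Within a receptor type, subunits could be set against each other on the same array, which removes whatever scaled an array as a whole. The 6 pairs were chosen after the values were seen, most of them to set a gene that fell against one with a positive difference, so their shifts restate the single-gene differences above, add no evidence to them and were given no test. Since probe sets differ in brightness, only the shift of a ratio between groups can be read. The log2 ratio of Gria1 to Gria3 was -2.19, -0.63 and -2.32 in the arrays labelled differentiated and 0.51, 1.04 and 1.02 in those labelled undifferentiated, a shift of -2.57. That of Gria2 to Gria3 shifted by -2.29, while Gria1 to Gria2 shifted by -0.27 with overlapping groups.

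The ratio of Grin1 to Grin2d was 0.48, 0.63 and 0.53 in the arrays labelled differentiated and 3.28, 3.01 and 2.87 in those labelled undifferentiated, a shift of -2.51. Grin2c to Grin2d shifted by -0.87 and Grik5 to Grik2 by -1.56.

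**Figure D3:**
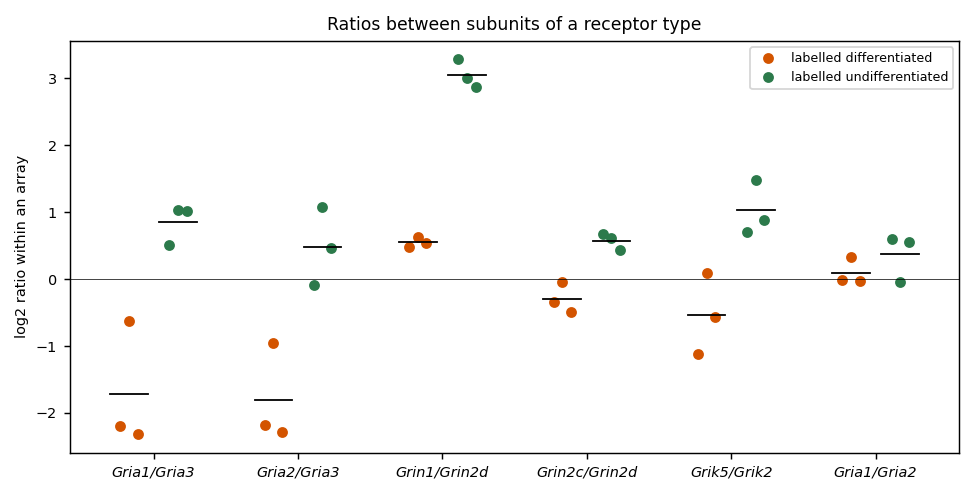
Log2 ratio of each of 6 subunit pairs within an array, labelled differentiated on the left and labelled undifferentiated on the right of each pair; points are arrays and lines are means of 3 arrays. The ratios to Gria3, Grin2d and Grik2 are lower on all 3 arrays labelled differentiated, and those of Gria1 to Gria2 overlap.

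The genes that make, move and dock these transmitters were counted in 5 lists. Of 8 measured genes of GABA synthesis, breakdown and transport 0 rose and 3 fell (37.5% passed, median -0.11). Gad1, the glutamate decarboxylase that makes GABA, read 4.05, 3.74 and 4.26 in the arrays labelled differentiated and 6.01, 6.39 and 6.45 in those labelled undifferentiated, and fell by 2.27 ± 0.17 (limma adjusted p = 2.36e-06). Abat and Aldh5a1, which break GABA down in mitochondria, fell by 1.49 and 1.28. The other decarboxylase Gad2 differed by -0.05 and the vesicular GABA transporter Slc32a1 by 0.41, and neither passed.

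Of 10 genes of glycine transport and breakdown 2 rose and 1 fell (30% passed, median 0.09). Shmt1 and Shmt2, the cytosolic and mitochondrial enzymes that interconvert serine and glycine, rose by 0.76 and fell by 0.67, and Gcsh of the glycine cleavage system rose by 0.45. Of 14 genes of glutamate synthesis and transport 2 rose and 1 fell (21.4% passed, median 0.07). Slc1a3, the glial glutamate transporter GLAST, read 6.25, 6.35 and 5.57 in the arrays labelled differentiated and 4.27, 4.52 and 4.66 in those labelled undifferentiated, and rose by 1.58 ± 0.20 (limma adjusted p = 0.000125). Glud1, glutamate dehydrogenase, rose by 0.56, and the glutamine carrier Slc38a1 fell by 1.23. The vesicular glutamate transporters Slc17a6, Slc17a7 and Slc17a8 differed by 0.04, 0.04 and 0.22 without passing.

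Partners of inhibitory receptors and chloride carriers had 2 higher and 6 lower of 14 measured genes (57.1% passed, median -0.22). Of these 14, 13 had a mean above 4.44, where 40% of all genes passed. Clptm1, which limits GABA-A receptor export to the surface, fell by 0.87, Nlgn2, the adhesion protein of inhibitory synapses, by 0.82 and Gabarapl1, of the family that binds GABA-A receptors and autophagosomes, by 0.77. Zdhhc3, a palmitoyltransferase that acts on GABA-A receptors, rose by 0.57 and Slc12a2, the chloride importer NKCC1, by 0.76. The chloride exporter of neurons, Slc12a5, differed by -0.27 and did not pass.

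Partners of glutamate receptors had 5 higher and 11 lower of 30 (53.3% passed, median -0.18), and 24 of the 30 had a mean above 4.44. The pentraxins Nptx1 and Nptx2, secreted proteins that gather AMPA receptors, had the largest falls. Nptx1 read 5.44, 5.80 and 4.90 in the arrays labelled differentiated and 8.69, 9.53 and 9.30 in those labelled undifferentiated, and fell by 3.79 ± 0.24 (limma adjusted p = 6.17e-07). Nptx2 fell by 3.76 ± 0.22, a 13.5-fold difference, and the NMDA receptor scaffold Dlg2 by 1.83 ± 0.12. Grip1, a scaffold that binds GluA2 and GluA3, rose by 1.50 ± 0.14, Homer1, which binds metabotropic receptors, by 1.01 and the scaffold Dlg1 by 0.58.

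The same list held 7 measured auxiliary subunits of AMPA receptors, grouped here after their values were seen. Of these Cacng7, Cacng2 and Cnih2 fell, with differences of -1.45, -1.41 and -1.33, while Cacng3, Cacng4, Cacng5 and Cacng8 differed by -0.42, -0.25, 0.18 and 0.23 and did not pass. Over the 76 measured genes of the 5 lists 11 rose and 22 fell. Thus 43.4% passed, against 29.5% of all genes tested, 14.7% higher and 14.9% lower. Of the 76, 55 had a mean above 4.44, where 40% of all genes passed. The falls among receptors and partners stood beside the fall of 9 of 9 glomus cell markers and the rises beside the rise of 8 of 8 mesenchymal markers. Single markers of other cell types also fell, such as Cldn5 (-2.31) and Rgs5 (-2.28), or rose, such as Tagln (1.45) and Tyrobp (1.24). The part of any cell type in the differences of receptors and partners was not tested.

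**Figure D4:**
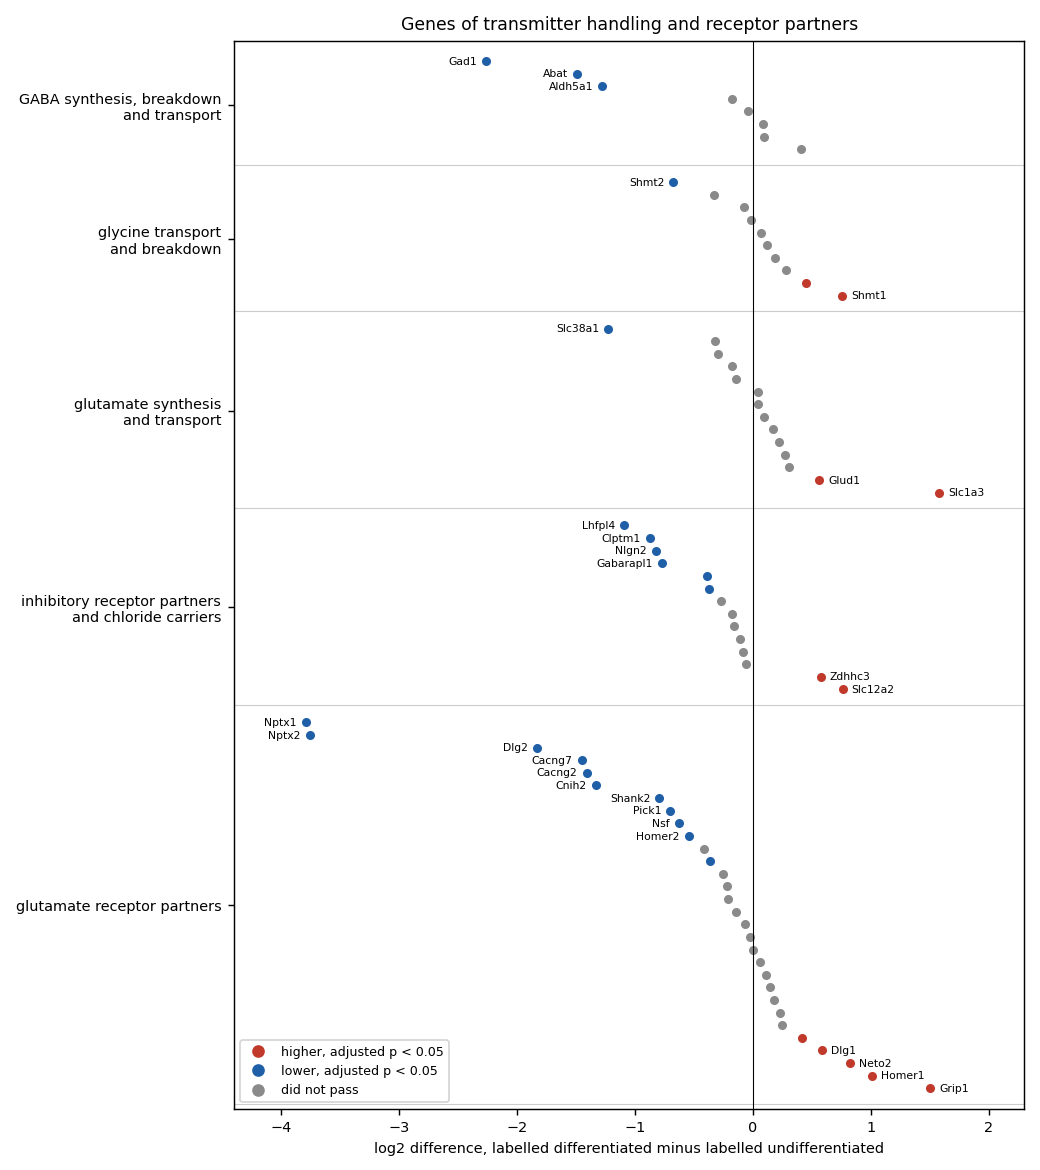
Log2 difference of the 76 measured genes of transmitter handling and receptor partners, labelled differentiated minus labelled undifferentiated, in 5 lists; each point is a gene, and genes that passed with a difference beyond 0.5 are named. Nptx1 and Nptx2 lie farthest left at -3.79 and -3.76, and Slc1a3 and Grip1 farthest right at 1.58 and 1.50.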

How the data were processed

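For each of 6 arrays the authors deposited log2 values of 29214 probe sets; that the scale is log2 was inferred here from their range. Per the labels' protocols, biotin-labelled cRNA was made from 100 ng of total RNA. The sources used here do not state how the authors corrected, normalized and summarized them. Array medians lay between 5.05 and 5.13.

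Groups and replicate numbers came from the titles. Probe sets were named from the platform table, which gave 15310 with a single symbol, 14506 genes in all, each by its probe set of highest mean. All genes entered limma 3.58.1 in R 4.3.3 (eBayes with trend, no block, two-sided, Benjamini-Hochberg over all genes at 0.05), which was tested on simulated data. The median residual SD was 0.16. Ratios of subunits were described without a test. The alternatives were a replicate block, quantile normalization, median centring, dim genes left out, eBayes without the trend, and each array left out. Others were to average a gene's probe sets, to take that of largest variance, and to fit and adjust over all probe sets. Same-numbered arrays deviated together with correlations of 0.115, 0.124 and -0.00376 over all genes. No label ties them together, so the main fit did not pair them. Correlations over all genes do not settle whether single genes follow the replicate numbers. The members and lists were chosen with earlier results of these data known. Every member was accounted for, with all values given for changed members and the one of highest mean in each class; of each list up to 3 genes per direction with the smallest p were named. The genes named from the lists without having passed, and the auxiliary subunits of AMPA receptors, were added after their values were seen.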

Additional observations from a re-analysis of the deposited data

How the results depend on the processing

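Of the 10 changed receptor genes, Gabra2, Gabrg1, Glrb, Gria1, Gria2, Grik5 and Grin1 passed under every alternative that fitted them (Gabrg1 was not fitted where dim genes were left out), while Gria3, Grin2c and Grm7 lost their call under those given in the report. With each array left out, 2 to 4 receptor genes were higher and 5 to 7 lower, and with the other alternatives 2 to 4 and 6 to 8. The median difference of all genes was 0.06 as deposited and 0.03 with quantile normalization or median centring. With the replicate block 4 receptor genes were higher and 7 lower, the added one being Grik2 (0.55, limma adjusted p = 0.00593), where no label ties same-numbered arrays together, and the block changed no other receptor call. Grik2 also passed without differentiated replicate 2 (0.81, adjusted p = 0.0453), and Grid2ip without differentiated replicate 1 (0.52, adjusted p = 0.0433). Of 47 receptor genes, 16 turned sign under at least 1 alternative, none of them a changed gene, and the cause was not tested. With quantile normalization these were Gabrd (-0.0129), Gabrg3 (-0.0139), Gabrp (-0.00270), Gabrr1 (-0.0138), Grik1 (-0.0334) and Grik4 (-0.00437), and with median centring Gabrd (-0.00835). With each array left out the differences ran from -0.0621 to 0.0447 for Gabra3, -0.0917 to 0.0868 for Gabrd, -0.0009 to 0.123 for Gabrg3, -0.0330 to 0.192 for Gabrp, -0.415 to 0.0947 for Gabrq, -0.0963 to 0.168 for Gabrr1, -0.206 to 0.00246 for Gabbr2 and -0.101 to 0.0264 for Glra3. They ran from -0.0870 to 0.161 for Grik4, -0.185 to 0.0910 for Grin3a, -0.0399 to 0.224 for Grin3b, -0.0895 to 0.00426 for Grid1, -0.00873 to 0.181 for Grm2, -0.119 to 0.0960 for Grm5 and -0.0886 to 0.0121 for Grm6. Signal over background is not known for dim probe sets, and 3 arrays per group limit the precision.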
